A study of Mus musculus with 8 samples.

Results

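Flt3 and the other class III receptor tyrosine kinases, with 3 of their ligands, were followed across multipotent progenitors of wild type mice and of mice carrying FLT3-ITD. The genes were the receptors Flt3, Kit, Csf1r, Pdgfra and Pdgfrb and the ligands Flt3l, Kitl and Csf1. Every probe set that the platform annotation gives to exactly 1 of these genes was taken. That left 19 of 45101 probe sets, 11 for receptors and 8 for ligands, and covered 7 of the 8 genes, of 18193 on the array. Flt3l had no probe set of its own.

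Both groups were female C57BL6 mice, 8 to 10 weeks old. Bone marrow progenitors were sorted without lineage markers or CD150 and with Sca-1, c-Kit and CD48 on the surface. The groups differed by genotype, wild type or FLT3-ITD, with 4 arrays each. The labels number 3 of them 1, 2 and 3 and the last 1 with the tag 037, called replicate 037 here. The zygosity of FLT3-ITD, the promoter that drives it, whether samples came from separate mice and what 037 stands for are not given in the labels. Replicate 037 may be a repeat of replicate 1, and the spread behind each p-value is that of these arrays and may be technical.

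Class III receptor tyrosine kinases sit in the cell membrane with an outer part of immunoglobulin-like domains and an inner kinase split by an insert. A dimeric ligand pairs 2 receptors, which then phosphorylate each other and recruit adaptors, phosphatidylinositol 3-kinase and phospholipase C gamma. An internal tandem duplication in FLT3, usually in the juxtamembrane segment, lets the receptor signal without ligand and is a common lesion of acute myeloid leukaemia. In marrow, FLT3 marks early lympho-myeloid progenitors, KIT serves stem cells, progenitors and mast cells, and CSF1R serves monocytes and macrophages. PDGF receptors belong mainly to stromal cells.

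Of the non-member progenitor genes checked against the labelled cell type, 12 of 13 on the array lay above the filter on dim values. The exception was Slamf1, which encodes CD150, absent from the sorted cells; it was below the median of every array. The array least like the rest was FLT3-ITD replicate 1 (r from 0.948 to 0.960), where other pairs reached up to 0.981. In FLT3-ITD replicate 037 the Gapdh controls read 2.99 higher at the 3′ end than at the 5′ end, a measure of RNA integrity, which was 1.82 to 2.29 elsewhere. Values are log2 and were compared with limma, with p-values adjusted over all features in a fit. A level was compared only with the same probe set on other arrays. In bulk RNA, fewer cells of a type and less RNA per cell cannot be told apart.

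Flt3 fell in FLT3-ITD, and it was the single member past the test. Its probe set, 1419538_at, read 10.52, 10.68, 10.55 and 10.41 in wild type replicates 1, 2, 3 and 037. It read 9.90, 9.13, 9.45 and 9.02 in FLT3-ITD. Whether this probe set reads the normal Flt3 transcript, the one with the duplication or both was not analysed here. Every FLT3-ITD array was below every wild type array, and FLT3-ITD replicate 1 was the closest to wild type. The FLT3-ITD values also spread more widely, with an SD of 0.39 against 0.11 (n = 4 each). The means were 10.54 and 9.37, a difference of −1.17 ± 0.20 (SE; 95% interval −1.61 to −0.72), or 2.25-fold lower (limma adjusted p = 0.0406 over 10762 genes; exact two-sided permutation p = 0.0286, the smallest possible with 4 against 4).

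In that fit 1 of 5 tested members, Flt3, passed in the lower direction and 0 in the higher direction, against 0.177% and 0.427% of all tested genes. At an unadjusted limma p under 0.05 there were 3 lower members, Flt3, Kit and Pdgfrb, and 0 higher. Over all tested genes 3.84% were lower and 5.74% higher at that threshold. Flt3 ranked 57 of 10762 genes by p, and 0.437% of tested genes had a difference as low or lower. Flt3 was also the only 1 of the 19 probe sets with all FLT3-ITD arrays below all wild type arrays, against 2.17% of all 34945 probe sets with 1 gene. None lay entirely above, against 3.07%. Among the 5 tested genes, 1 lay entirely below and 0 entirely above, against 2.44% and 3.77% of tested genes.

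The call on Flt3 sat at the edge of the threshold. Fitted per probe set, where 10 of the 19 members passed the filter and 19208 probe sets were tested, Flt3 had limma adjusted p = 0.0533. None of the 10 passed there, against 0.416% of all probe sets. At an unadjusted limma p under 0.05, 4 were lower and 0 higher. The 4 were Flt3, Kit 1452514_a_at and both Pdgfrb probe sets, so they are not 4 genes. For Pdgfrb 1436970_a_at the high wild type group decided that it passed the filter. The share over all probe sets at that threshold was not counted, and over tested genes it was 3.84% and 5.74%. Without the filter none of the 19 passed by limma, against 0.157%. Again the same 4 were lower and 0 higher at an unadjusted limma p under 0.05. There too the share over all probe sets was not counted. Leaving out FLT3-ITD replicate 1 gave a difference of −1.34 and limma adjusted p = 0.0127. Leaving out any wild type array ended the limma call (adjusted p = 0.118, 0.159, 0.142 and 0.0878 for replicates 1, 2, 3 and 037). So did leaving out FLT3-ITD replicate 2, 3 or 037 (limma adjusted p = 0.145, 0.109 and 0.0990). The difference stayed between −1.34 and −1.05 in these 8 fits.

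**Figure D1:**
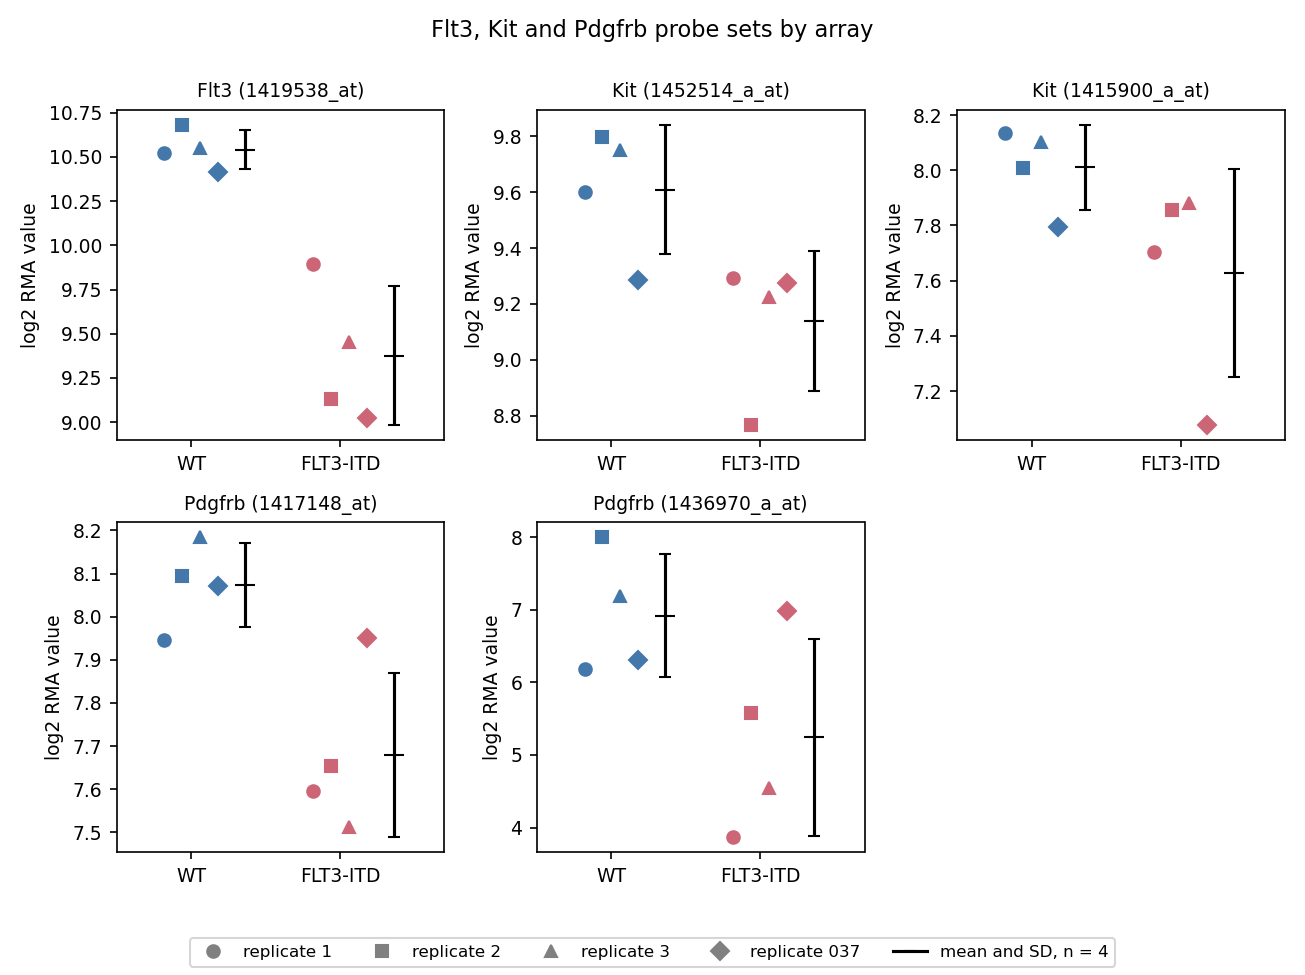
Log2 RMA values (y axis) of the Flt3, Kit and Pdgfrb probe sets on the 4 wild type (WT) and 4 FLT3-ITD arrays, 1 point per array with the replicate given by its shape, and the mean with SD (n = 4) beside them; each panel has its own scale. Flt3 is the 1 panel where the genotypes do not overlap, with wild type from 10.41 to 10.68 and FLT3-ITD from 9.02 to 9.90.

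Flt3 read lower on both kinds of array. On the 037 arrays FLT3-ITD minus wild type was −1.39, with 1 array per genotype and so no test. On the arrays numbered 1, 2 and 3 it was −1.09 (exact permutation p = 0.1, the smallest possible with 3 against 3). FLT3-ITD replicate 037, with the largest Gapdh step, also had the lowest Flt3 value, and the part of RNA quality in the result was not tested.

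Kit encodes the stem cell factor receptor, and c-Kit protein was part of the sort in both genotypes. Its brighter probe set, 1452514_a_at, read 9.60, 9.80, 9.75 and 9.28 in wild type replicates 1, 2, 3 and 037, and 9.29, 8.77, 9.23 and 9.27 in FLT3-ITD. The overlap came from wild type replicate 037, which lay among the FLT3-ITD values. The difference was −0.47 ± 0.17 (SE; 95% interval −0.86 to −0.08), and it did not pass (limma adjusted p = 0.427; exact permutation p = 0.0571). The interval therefore reaches from almost no difference to a difference near 0.86 on the log2 scale.

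The other Kit probe set, 1415900_a_at, read 8.14, 8.01, 8.10 and 7.79 in wild type and 7.70, 7.85, 7.88 and 7.08 in FLT3-ITD. Its difference of −0.38 ± 0.20 (SE) had the same sign and did not pass either (limma adjusted p = 0.626 over probe sets). It was −0.20 with FLT3-ITD replicate 037 left out. The arrays behind the lower values differed between the probe sets. For 1452514_a_at the difference was −0.62 on the arrays numbered 1 to 3 and −0.01 on the 037 arrays. For 1415900_a_at it was −0.27 and −0.72. Probe sets ending in _a_at are shared by several transcripts of 1 gene, and which transcripts each probe set reads was not analysed here.

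Flt3 was also lower relative to Kit within the arrays. Flt3 minus Kit, each at its brightest probe set, was 0.92, 0.88, 0.80 and 1.13 in wild type replicates 1, 2, 3 and 037, and 0.60, 0.36, 0.23 and −0.25 in FLT3-ITD. The genotypes did not overlap, and FLT3-ITD replicate 037 was the lowest. The means were 0.93 ± 0.14 and 0.24 ± 0.36 (SD, n = 4 each), so the difference of Flt3 exceeded that of Kit by 0.70 on the log2 scale, at −0.70 (exact two-sided permutation p = 0.0286, the smallest possible). This shows unequal change and not that Kit stayed level. Without any 1 of the wild type arrays the exact permutation p was 0.0571, at −0.70, −0.72, −0.74 and −0.63 without replicates 1, 2, 3 and 037. With replicates 1 and 037 averaged it was 0.1, at −0.65. Without both 037 arrays, a choice made after seeing the data, it was 0.1, at −0.47.

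**Figure D2:**
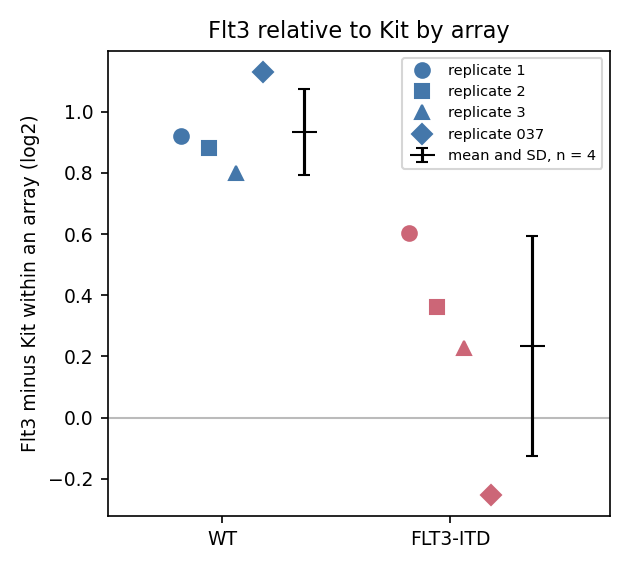
Flt3 minus Kit within each array (y axis, difference of log2 values) for 4 wild type (WT) and 4 FLT3-ITD arrays, 1 point per array, with the mean and SD (n = 4) in black. Wild type arrays lie from 0.80 to 1.13 and FLT3-ITD arrays from −0.25 to 0.60; the height of 0 has no meaning of its own, since the probe sets bind differently.

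The stretches around the Flt3 and Kit starts are shown because these receptors were set against each other above. They come from RefSeq, build GRCm38.p6, with 250 bases before and 50 after the start, and are written in the direction of the gene. Flt3 lies at chr5:147400440-147400739 on the minus strand and Kit at chr5:75574737-75575036 on the plus strand. Capitals mark matches, on either strand, to any of 6 short motifs.

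Flt3: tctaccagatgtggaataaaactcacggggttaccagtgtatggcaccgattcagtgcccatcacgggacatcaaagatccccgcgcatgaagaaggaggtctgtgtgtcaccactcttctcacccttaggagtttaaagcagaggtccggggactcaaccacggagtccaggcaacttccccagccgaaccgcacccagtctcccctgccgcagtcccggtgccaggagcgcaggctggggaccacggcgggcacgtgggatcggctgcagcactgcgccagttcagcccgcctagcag

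Kit: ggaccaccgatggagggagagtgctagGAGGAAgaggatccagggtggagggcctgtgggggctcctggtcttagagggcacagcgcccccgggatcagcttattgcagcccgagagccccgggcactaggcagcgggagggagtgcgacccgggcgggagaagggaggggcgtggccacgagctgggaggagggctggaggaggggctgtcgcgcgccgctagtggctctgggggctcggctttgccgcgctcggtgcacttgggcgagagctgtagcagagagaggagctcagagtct

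The motifs were TTCNNNGAA of STAT factors, AGATAA of GATA factors, TGTGGT of RUNX factors, GAGGAA of PU.1 and other ETS factors, TGACAG of MEIS factors and CAGCTG, an E-box. They occur in 8.3%, 11.2%, 16.8%, 28.3%, 19.2% and 16.3% of the 32851 stretches of this length around mouse gene starts. The Flt3 stretch held no match to these letters, and the Kit stretch held 1, GAGGAA, which begins 223 bases before the start. GC content was 61.0% for Flt3 and 69.0% for Kit. A match to such letters is a description and not a binding site, and more distant control regions were not looked at.

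Csf1r, the receptor for the macrophage growth factor CSF1, read higher in FLT3-ITD on average in each of its 3 probe sets, and none passed the test. The brightest, 1419872_at, read 6.51, 7.83, 7.59 and 8.32 in wild type replicates 1, 2, 3 and 037, and 7.16, 9.78, 7.89 and 9.26 in FLT3-ITD. The groups overlapped, with FLT3-ITD replicates 2 and 037 highest. The difference was 0.96 ± 0.60 (SE; 95% interval −0.39 to 2.31; limma adjusted p = 0.676; exact permutation p = 0.229). It was 0.61 with wild type replicate 1 left out and 0.54 with FLT3-ITD replicate 2 left out, and neither passed. It was alike on the 037 arrays and on the others, at 0.95 and 0.97.

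The remaining Csf1r probe sets were dimmer. 1423593_a_at ran from 5.70 to 6.76 in wild type and from 6.37 to 6.77 in FLT3-ITD, a difference of 0.30 ± 0.24 (SE). It was 0.11 with wild type replicate 3 left out and 0.46 with wild type replicate 1 left out. The values of 1419873_s_at were 5.22, 5.80, 5.76 and 6.84 in wild type against 6.57, 6.40, 6.72 and 6.14 in FLT3-ITD, a difference of 0.55 ± 0.31 (SE), which was 0.33 with wild type replicate 1 left out and 0.86 with wild type replicate 037 left out. There the sign depended on the tag, with 0.97 on the arrays numbered 1 to 3 and −0.69 on the 037 arrays. 1419873_s_at was above the median on 5 arrays, the 4 FLT3-ITD arrays and wild type replicate 037. Its high group thus decided that it passed the filter. Probe sets ending in _s_at can bind transcripts of more than 1 gene.

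Monocyte and macrophage markers other than Csf1r were read beside it. Of 14 on the list, 12 were on the array and 3 passed the filter: Cd68, Lyz2 and Ccr2. Ccr2, a chemokine receptor, rose by 3.62 ± 0.52 (limma adjusted p = 0.0213), but it was above the median on 4 FLT3-ITD arrays and 1 wild type array, so its high group decided that it was tested. It no longer passed in 5 of 8 fits with 1 array left out, those without wild type replicate 1 or 3 or FLT3-ITD replicate 1, 2 or 3. Cd68 read 0.26 ± 0.22 and Lyz2 0.16 ± 0.17 higher, and neither passed. The mean of the 3 relative to their own average ran from −1.13 to −0.45 in wild type and from 0.26 to 0.91 in FLT3-ITD, mostly through Ccr2, and their median difference was 0.26. Fcgr1, C1qa, C1qb and C1qc were each above the median on only 1 or 2 arrays and were not tested. They averaged lower in FLT3-ITD, at 5.89, 6.06, 5.69 and 5.71 in wild type against 5.51, 5.63, 4.16 and 5.60. Adgre1, Mrc1, Cx3cr1, Cd14 and Ms4a7, markers of mature monocytes and macrophages, were below the median of every array. The part of such cells in the Csf1r values was not tested beyond this.

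**Figure D3:**
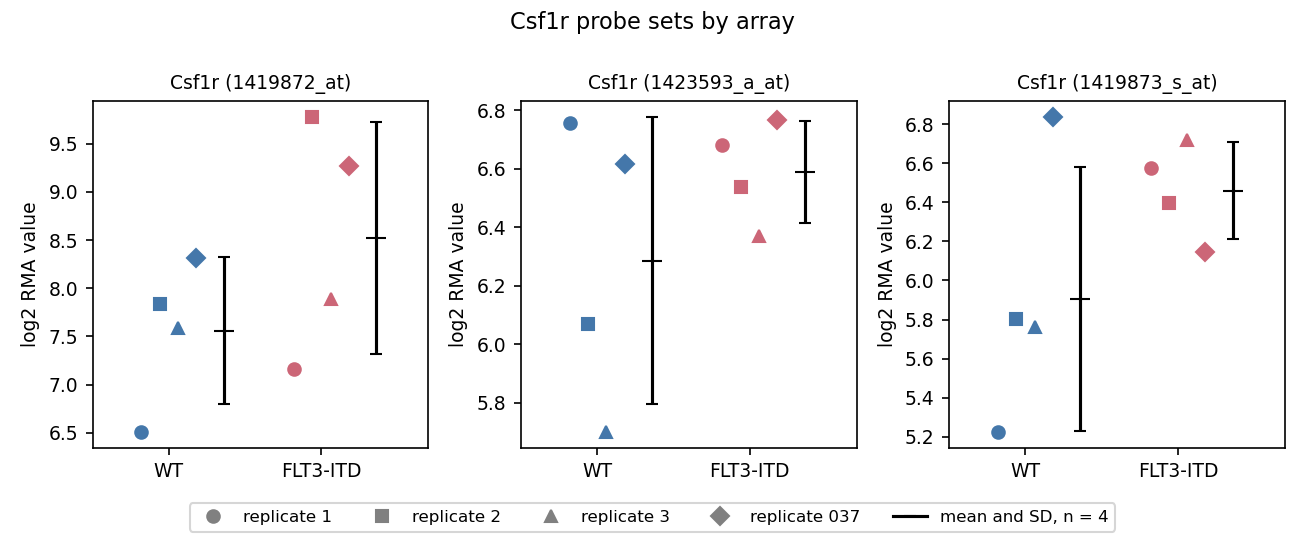
Log2 RMA values (y axis, own scale per panel) of the 3 Csf1r probe sets on 4 wild type (WT) and 4 FLT3-ITD arrays, with the replicate given by its shape and the mean and SD (n = 4) in black. The genotypes overlap in each panel, and 1419872_at spans 6.51 to 9.78.

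Pdgfrb, a PDGF receptor of stromal and perivascular cells, read lower in FLT3-ITD in both of its probe sets, short of the threshold. 1417148_at read 7.95, 8.09, 8.18 and 8.07 in wild type and 7.60, 7.65, 7.51 and 7.95 in FLT3-ITD. FLT3-ITD replicate 037 lay with wild type, and the other FLT3-ITD arrays were below. The difference was −0.40 ± 0.13 (SE; 95% interval −0.70 to −0.09; limma adjusted p = 0.379; exact permutation p = 0.0571).

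1436970_a_at varied more, with 6.18, 8.00, 7.19 and 6.31 in wild type and 3.87, 5.58, 4.55 and 6.98 in FLT3-ITD. Again FLT3-ITD replicate 037 was the highest of its group. This probe set was above the median on 5 arrays, the 4 wild type arrays and FLT3-ITD replicate 037. Its high group thus decided that it passed the filter. Its difference was −1.68 ± 0.66 and did not pass (limma adjusted p = 0.499, over probe sets). It was −2.46 on the arrays numbered 1 to 3, where the genotypes did not overlap, and 0.67 on the 037 arrays. On arrays 1 to 3 the exact permutation p was 0.1, the smallest possible with 3 against 3. Flt3, both Kit probe sets, Pdgfrb 1417148_at, Kitl 1448117_at and, in the higher direction, Csf1r 1419873_s_at reached the same p. The share over all probe sets was not counted. With Pdgfrb read as the mean of its probe sets, the gene-level difference was −1.04, and with the probe set of largest SD it was −1.68; neither passed.

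Pdgfra was dim throughout. Its 3 probe sets lay between 4.02 and 5.18 on the 8 arrays, below every array median, and none passed the filter. Their differences were −0.11, 0.02 and 0.01, with the widest 95% interval running from −0.54 to 0.33. In the mouse genome Pdgfra is next to Kit on chromosome 5 and Pdgfrb is next to Csf1r on chromosome 18, with no protein-coding gene between either pair in the RefSeq table. Differences between neighbours were not tested.

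Endothelial and stromal markers other than the members were read beside Pdgfrb. Of 12, 4 passed the filter, and none passed the test by limma (1, Sparc, higher at an unadjusted p under 0.05). Their median difference was −0.01. Cxcl12, Lepr, Cdh5, Vwf, Col3a1, Lum and Dcn were below the median of every array. Sparc read 1.03 ± 0.23 higher (limma adjusted p = 0.137). Emcn went the other way, at 7.14 ± 0.55 in wild type against 6.26 ± 0.78 in FLT3-ITD (SD, n = 4 each). Pecam1 averaged 7.76 against 7.78 and Col1a1 6.01 against 5.97.

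**Figure D4:**
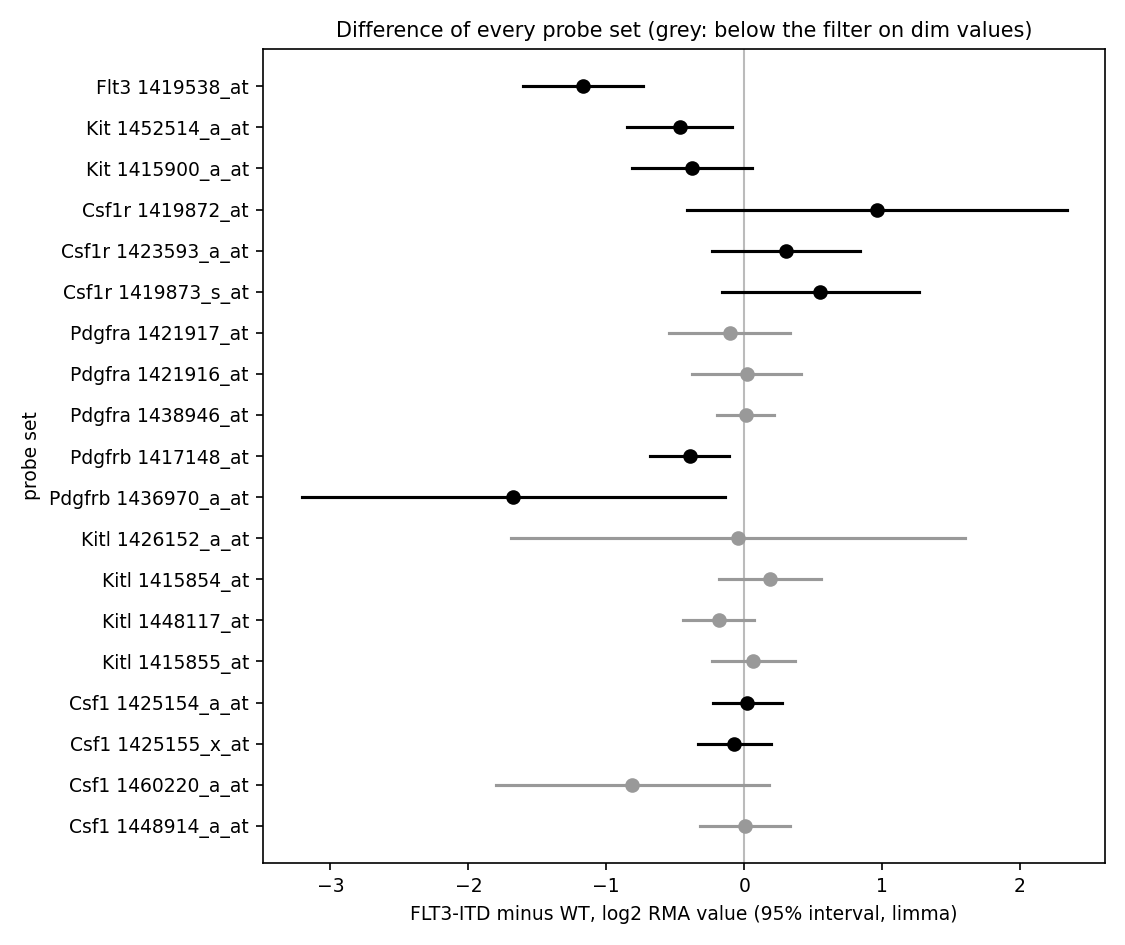
FLT3-ITD minus wild type (WT) for the 19 probe sets, as log2 differences (x axis) with 95% intervals from limma without the filter on dim values; black, passed the filter; grey, did not. Flt3 has the interval farthest from 0, at −1.60 to −0.73, and the intervals of Kitl 1426152_a_at, Pdgfrb 1436970_a_at and Csf1r 1419872_at are the widest.

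Among the ligands, Csf1 alone was tested at gene level, and it did not pass. Kitl did not pass the filter on dim values, and Flt3l had no probe set of its own. Kitl, stem cell factor, is made mainly by niche cells, and 3 of its 4 probe sets read between 2.60 and 4.14 on the 8 arrays. The fourth, 1426152_a_at, separated the arrays by tag and not by genotype. It read 5.04, 5.01 and 4.87 in wild type replicates 1, 2 and 3 and 7.73 in replicate 037. In FLT3-ITD it read 5.25, 5.15 and 4.92 in replicates 1, 2 and 3 and 7.14 in replicate 037. The 037 arrays were thus above the mean of the others by 2.76 in wild type and 2.03 in FLT3-ITD, while the genotypes differed by −0.04 ± 0.72. Of 34945 probe sets, 4 including this one had both 037 arrays at least 2.03 above the others. The other Kitl probe sets showed no such step: the 037 arrays differed from the rest of their genotype by −0.38 to 0.22.

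**Figure D5:**
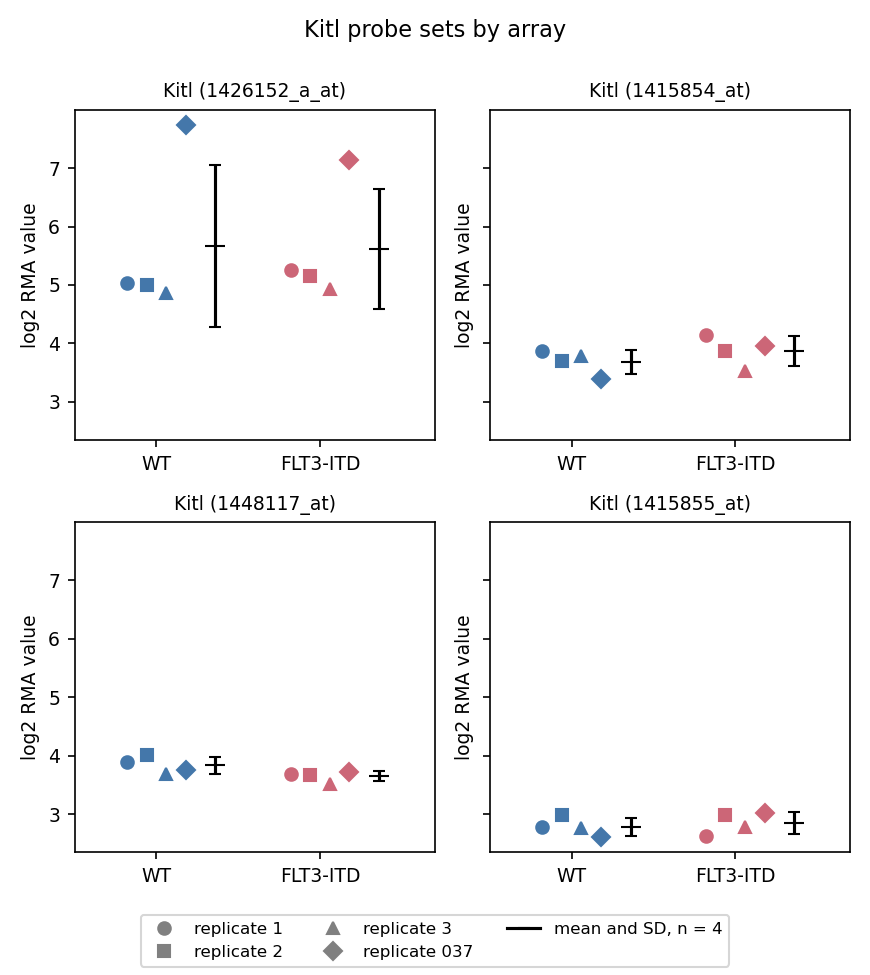
Log2 RMA values (y axis, 1 common scale) of the 4 Kitl probe sets on 4 wild type (WT) and 4 FLT3-ITD arrays, with the replicate given by its shape and the mean and SD (n = 4) in black. In 1426152_a_at both 037 arrays (7.73 and 7.14) stand above the other 6 arrays (4.87 to 5.25).

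Csf1 is the ligand of Csf1r, and its 4 probe sets differed by −0.81 to 0.02. The brightest probe set, 1425154_a_at, ran from 6.89 to 7.24 in wild type and from 6.99 to 7.16 in FLT3-ITD, a difference of 0.02 ± 0.12 (95% interval −0.25 to 0.29; limma adjusted p = 0.972). The sign of that difference turned without wild type replicate 3 (−0.031) or FLT3-ITD replicate 037 (−0.0068). 1425155_x_at, of a type open to cross-hybridisation, differed by −0.07 and 1448914_a_at by 0.01. 1460220_a_at read 5.31, 7.55, 6.40 and 5.83 in wild type and 5.12, 5.72, 5.20 and 5.80 in FLT3-ITD, with wild type replicate 2 highest. Its difference was −0.81 ± 0.43, and it did not pass the filter.

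Flt3l, the FLT3 ligand, is next to the ribosomal protein gene Rpl13a, and the probe set 1422115_a_at is given to both. It read 4.69, 5.07, 5.76 and 4.22 in wild type and 8.11, 5.29, 5.97 and 6.38 in FLT3-ITD. FLT3-ITD replicate 1 was the highest, and the groups overlapped, at 4.93 ± 0.65 and 6.43 ± 1.20 (SD, n = 4 each; difference 1.50; exact permutation p = 0.0571). The 4 probe sets of Rpl13a alone differed by −0.07 to 0.15 and lay between 10.50 and 13.61 on the 8 arrays. Which transcript the shared probe set read cannot be told apart here. Other class III ligands on the array were Pdgfa, at −0.04 ± 0.12, and Pdgfb, at −0.02 ± 0.13; Pdgfc, Pdgfd and Il34 were below the median of every array.

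Downstream of the receptors, 20 of 27 genes for adaptors and early signalling enzymes were tested, and none passed by limma (1 higher and 1 lower at an unadjusted p under 0.05). Their median difference was −0.08, against 0.02 over all tested genes. Plcg1, a phospholipase C gamma, averaged 10.46 ± 0.25 against 9.74 ± 0.61 in FLT3-ITD (SD, n = 4 each), at −0.72 ± 0.29 (SE; limma adjusted p = 0.477), with FLT3-ITD replicate 1 lowest at 8.83. Pik3cg, a phosphatidylinositol 3-kinase catalytic subunit, read 0.48 ± 0.21 higher (limma adjusted p = 0.519). The share at an unadjusted p under 0.05 was 5% in each direction, against 5.74% higher and 3.84% lower over all tested genes.

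Of 19 genes for negative regulators, phosphatases and ubiquitin ligases, 17 were tested, and none passed by limma (1 higher and 1 lower at an unadjusted p under 0.05). The median was −0.13. Sla, which encodes the adaptor SLAP that promotes receptor down-regulation, averaged 8.96 ± 0.32 against 9.52 ± 0.14 in FLT3-ITD (SD, n = 4 each), at 0.57 ± 0.17 (SE; limma adjusted p = 0.315). Wild type replicate 037, at 9.38, lay above the lowest FLT3-ITD array, at 9.33. Dok1, a docking protein that dampens kinase signalling, read −0.36 ± 0.16 (limma adjusted p = 0.509), with every FLT3-ITD array, from 6.97 to 7.56, below every wild type array.

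Transcription factors known at the Flt3, Kit or Csf1r genes had mostly negative differences, and none of the 13 tested passed by limma. Their median difference was −0.36, with 9 negative and 4 positive, and it ran from −0.43 to −0.08 over 21 alternatives. At an unadjusted p under 0.05, 4 were lower (30.8%) and 0 higher, against 3.84% and 5.74% of all tested genes. The 4 positive were Cebpa, Spi1, Runx1 and Tal1. Their wild type means were 7.95, 7.76, 10.68 and 7.23, against 8.59, 8.05, 10.77 and 7.53 in FLT3-ITD. The mean of the 13 on an array, relative to their own average, ran from 0.04 to 0.14 in wild type and from −0.24 to 0.01 in FLT3-ITD. Hoxa9, a homeobox factor of progenitors that acts with MEIS1, averaged 10.49 ± 0.20 in wild type against 9.78 ± 0.34 (SD, n = 4 each), at −0.70 ± 0.19 (limma adjusted p = 0.239), and FLT3-ITD arrays, from 9.34 to 10.09, lay below wild type arrays. Lmo2, a bridging factor of early blood complexes, read −0.40 ± 0.12 (limma adjusted p = 0.319). The list was written with earlier results of these samples known, so its direction is no independent evidence.

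Among 43 other receptor tyrosine kinases, 14 were tested, and none passed by limma (1 higher and 1 lower at an unadjusted p under 0.05). The median was 0.03, and 21 were below the median of every array, among them Tek, Kdr and Flt1 of the vessel wall. Met, the hepatocyte growth factor receptor, came nearest. In wild type it averaged 5.75 ± 0.33, and in FLT3-ITD it read 9.16, 8.38, 7.36 and 7.13 in replicates 1, 2, 3 and 037. The difference was 2.26 ± 0.42, or 4.81-fold (SE; limma adjusted p = 0.0654). Met exceeded the median on 5 arrays, 4 FLT3-ITD and 1 wild type, so its high arrays decided that it was tested. Epha7 read −0.87 ± 0.21 (limma adjusted p = 0.160); it was above the median on the 4 wild type arrays and on 0 FLT3-ITD arrays, so here too the high group decided.

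Markers of other cells moved with genotype beside the fall of Flt3. Dendritic cells also carry FLT3, and of 9 tested dendritic markers other than Flt3, 5 rose and none fell, against 0.427% and 0.177% of all tested genes. Their mean relative to their own average ran from −1.20 to −1.02 in wild type and from 0.72 to 1.45 in FLT3-ITD. Not all read higher: Tcf4 read −0.32 ± 0.19 and Siglech −0.02 ± 0.11, and neither passed. The 5 that rose were Irf8 and H2-Ab1, H2-Aa, H2-Eb1 and Cd74, the last 4 all genes of antigen presentation. H2-Ab1 and Cd74 rose by 3.58 ± 0.18 and 4.12 ± 0.31 (limma adjusted p = 5.4e-05 and 0.000765), while Cd209a and Ccr7 were below the median of every array. The count of dendritic markers that rose was 4 in 2 of 8 fits with 1 array left out. Of 4 tested erythroid markers 2 fell, Hbb-b2 and Slc4a1, and 0 rose, against the same background. Slc4a1 was above the median on the 4 wild type arrays alone, so its high group decided that it was tested. The mean of the 4 ran from 0.36 to 0.98 in wild type and from −1.11 to −0.15 in FLT3-ITD. The count passing was 1 in 7 of 8 fits with 1 array left out, all but that without FLT3-ITD replicate 3, and 0 without both 037 arrays. Their part in the Flt3 result was not tested.

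No marker of mast cells and basophils, which carry KIT, passed among 4 tested besides Kit (limma; median −0.13; 1, Gata2, lower at an unadjusted p under 0.05), and Cpa3, Fcer1a and Ms4a2 were below the median of every array. Without the filter 1 passed: Cpa3, a mast cell protease, fell from 5.52 ± 0.26 to 4.42 ± 0.17 (SD, n = 4 each; limma adjusted p = 0.0308). The mean of the 4 ran from −0.12 to 0.18 in wild type and from −0.11 to 0.09 in FLT3-ITD. None passed by limma among 5 tested B cell markers (median −0.04), 4 of T and NK cells (median 0.42) and 2 of megakaryocytes (median −0.11), with none at an unadjusted p under 0.05 in these 3 lists. None of 6 mature neutrophil markers passed (median −1.59). At an unadjusted p under 0.05, 3 of them were lower, against 3.84% of all tested genes. Without FLT3-ITD replicate 2 the median was −2.56 and 1 passed, lower. Of the progenitor genes besides Flt3 and Kit, Cd48, whose protein was part of the sort, rose by 1.06 ± 0.13 (limma adjusted p = 0.00740) and 11 did not pass, with a median over the 12 of −0.43. Without FLT3-ITD replicate 2, Cd48 did not pass. With Flt3 and Kit counted in, 14 progenitor genes were tested, and 12 differences were negative and 2 positive. At an unadjusted limma p under 0.05, 6 of the 14 were lower (42.9%) and 1 higher, against 3.84% and 5.74% of all tested genes. Hlf, which did not pass, stood at 9.85 ± 0.23 for wild type against 8.66 ± 0.73 (SD, n = 4 each). Flt3 was thus not the only progenitor gene to read lower.

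Genes whose pattern over the 8 arrays was most like that of Flt3 were sought in a description with no test. With genotype means subtracted, so that only the spread within genotypes counted, Pearson r with Flt3 was highest for Tmem168 (0.983), Gm4876 (0.980), Brwd3 (0.975), Pih1d1 (0.973) and the kinase gene Lmtk2 (0.969). None of these 5 passed the test between genotypes by limma. Without that subtraction the highest were Sf1 (0.991), Ccdc125 (0.973), Hmox1 (0.960), Lca5l (0.958) and Malat1 (0.942). Of these Hmox1, which encodes heme oxygenase, fell by 1.17 on the log2 scale, a difference of −1.17 (limma adjusted p = 0.0282). For Kit, with genotype means subtracted, the highest were Lrrc39 (0.975), Fbxo21 (0.968), Maml2 (0.962), Cul4b (0.959) and Slc5a3 (0.959). These are the extremes of 10762 genes over 8 arrays that share 1 normalization.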

How the data were processed

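Per the labels' protocols, RNA of 8 samples was isolated with Trizol and amplified and biotin-labelled with NuGEN Ovation reagents. The authors deposited log2 values for each probe set. RMA is named in the submitters' processing notes, without a version; it corrects background, brings arrays to a common distribution and joins the probes of a set. Medians of the arrays ran from 5.98 to 6.05. Signal over background was not analysed here, and the number of arrays limits the precision.

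The annotation gave 1 gene to 34945 probe sets, and 34741 were named by Entrez ID from a RefSeq table of GRCm38.p6. For each gene the probe set with the highest mean was used, and the gene was tested if it exceeded the median on 4 or more arrays. FLT3-ITD was compared with wild type in limma 3.58.1 (R 4.3.3) with no covariate, at a Benjamini-Hochberg adjusted p of 0.05. A second fit took all probe sets. Single values had exact two-sided permutation tests, on 19 probe sets, the shared Flt3l probe set and Flt3 minus Kit. The procedure was tested on simulated data. Lists were described by counts and medians.

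The members and lists were chosen with earlier results of these data known. Named were all members, up to 4 called genes per list or the 2 of smallest p, and the 5 genes most correlated with Flt3 or Kit; other genes were named after their values were seen. Figures were drawn with matplotlib 3.10.9.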

Additional observations from a re-analysis of the deposited data

Results flagged for a closer look

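Of 96 groups of 4 arrays, 8 held an array far outside the range of its group, where about 1 in 20 would by chance. The members among them were Kit 1452514_a_at, lowest in FLT3-ITD replicate 2 at 8.77 against 9.23 to 9.29 in the others, and Kitl 1426152_a_at. Kitl 1426152_a_at was highest in wild type replicate 037 at 7.73 against 4.87 to 5.04, and in FLT3-ITD replicate 037 at 7.14 against 4.92 to 5.25.

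Among genes around the receptors, Plcg1 was lowest in FLT3-ITD replicate 1 at 8.83 and Pdgfa lowest in wild type replicate 3 at 6.49. Of the markers, H2-Eb1 was lowest in wild type replicate 3 at 5.88, Sparc highest in wild type replicate 037 at 7.15 and Thy1 lowest in wild type replicate 037 at 5.21, against 7.18 to 7.34 in the others.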

How the results depend on the processing

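Flt3 was lower in each of 21 alternatives, and its limma adjusted p missed the threshold in 11. Of these, 7 left out 1 array (differences over the 8 such fits −1.34 to −1.05, adjusted p 0.0127 to 0.159). The others, at −1.17, were the replicate block (0.119), the filter on all 8 arrays (0.0529) and the probe set of largest SD (0.0502); without both 037 arrays, chosen after seeing the data, it was −1.09 (0.161). Kit, Csf1r and Pdgfrb kept their direction and stayed short of the threshold in 21 alternatives each. Csf1 turned sign as a mean over probe sets (−0.21) and ranged from −0.031 to 0.084 with 1 array left out, at both gene and probe set level; its probe set 1425155_x_at read 0.021 without both 037 arrays. The cause was not tested. Flt3 minus Kit was −0.65 with replicates 1 and 037 averaged and −0.47 without both 037 arrays (exact permutation p = 0.1 each, the smallest possible), and −0.82 to −0.54 with 1 array left out. The count of 65 called genes became 22 with the replicate block, 25 with the filter on all 8 arrays, 37 without both 037 arrays and 15 to 49 with 1 array left out. The count of 80 called probe sets became 29, 29, 52 and 12 to 56, and 136 with array weights. Same-numbered samples deviated together only weakly (r from 0.027 to 0.110). Samples numbered 1, 3 and 037 correlated best with their own number in the other genotype, and 2 of 8 samples correlated better with another number. The labels do not say that numbers pair samples. With the probe set of largest SD, Csf1 was too dim to test and has no value. Dim values limit Pdgfra and Kitl.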
